A study of Mus musculus with 12 samples.

Results

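Immunoglobulin gene segments were read as single genes in RNA sequencing libraries of mouse bone marrow macrophages. They were chosen by symbol: every variable (V) gene of the heavy (Ighv), kappa (Igkv) and lambda (Iglv) loci and every constant region gene, with at least 10 counts summed over 12 libraries. In all, 244 of the 56832 gene entries met the rule, out of 359 whose symbol matched. Of the 115 left out for low counts, 67 had no count. The 244 were 121 Ighv, 108 Igkv and 2 Iglv genes, 8 heavy chain constant genes (Ighm, Ighd, Igha, Ighe, Ighg1, Ighg2b, Ighg2c and Ighg3), Igkc and 4 lambda constant genes (Iglc1 to Iglc4). A low-count filter left 202 of them to be tested.

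The study compared cells sorted by antibody as CD45 positive, F4/80 positive, Ly6g negative and Ly6c negative from the marrow of healthy mice with such cells from mice that had received a transplant of blast crisis chronic myeloid leukemia (bcCML) model cells. There were 4 groups of 3 libraries: female and male mice, each without leukemia or at day 11 of leukemia. The labels give neither strain, age nor genotype and leave it unsaid if each replicate was its own animal, so each p measures the spread between libraries. In its title the series deals with lactate and GPR81 signaling in macrophages.

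An antibody is built from heavy and light chains. In a developing B cell a V segment of each chain is joined to shorter segments by recombination, after which a constant segment sets the class: mu for IgM, delta for IgD, gamma for IgG, alpha for IgA and epsilon for IgE, with kappa or lambda as the light chain. Plasma cells, the antibody-secreting descendants of B cells, hold very large amounts of this RNA, and all cells of a clone carry the same V segments. Macrophages are not known for making antibody, and bind it through Fc receptors.

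The libraries held 16911827 to 30014855 counts. Female leukemic replicate 1 had the fewest genes with a count, 17891 against 19521 to 21247 in the others. The defining macrophage genes Csf1r, Cd68, Mertk and Adgre1 (F4/80) were detected in every library, with Csf1r at 159.5 to 1107 CPM (counts scaled to the library total). Ly6g, which the sort selected against, was still at 4.76 to 77.9 CPM, and Ly6c2 at 121 to 449.7 CPM. Genes of other blood cells were present throughout: the summed level of 12 B cell identity genes was 555 to 1078 CPM in non-leukemic and 505 to 1005 CPM in leukemic libraries. In bulk RNA, fewer cells of a type and less RNA per cell cannot be told apart.

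Immunoglobulin RNA made up a share of each library that ranged from 0.505% to 11.2% of its counts. In female non-leukemic replicates 1 to 3 the 244 genes held 1.81, 1.35 and 3.27% of counts. The 3 male non-leukemic libraries held 0.752, 0.505 and 0.833%, less than any female one. In female leukemic replicates 1, 2 and 3 the share was 11.2, 1.22 and 6.86%, and in the male leukemic libraries it was 0.887, 0.579 and 1.66%. Female leukemic replicates 1 and 3 were therefore far above the other 10 libraries, while female leukemic replicate 2 was below all 3 female non-leukemic libraries. The groups overlapped by condition. On average the share was 1.42 ± 1.02% in non-leukemic and 3.73 ± 4.34% in leukemic libraries (SD, n = 6 each), and the SD of the leukemic libraries was larger than their mean. The mean difference in log2 CPM of the sum was 0.83, and 0.25 without 2 libraries, male non-leukemic replicate 3 and female leukemic replicate 1, that stood apart in an earlier look at all genes. For lambda constant genes it went from 0.67 to -0.10. Counting error is small beside this: the Wilson 95% interval of these shares was at most 0.671% of the share on either side, and covers counting error only, since the amplified reads carry no molecular tags.

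Among the non-leukemic libraries every female one lay above every male one, at 1.35 to 3.27% against 0.505 to 0.833%. The same held for the summed counts of heavy V, heavy constant, kappa V, kappa constant, lambda constant, IgM and IgA genes, but lambda V, IgD, IgE and IgG overlapped between the sexes. Sums over chosen genes were given no test. The plasma cell gene Jchain, whose product joins antibody units into IgA dimers and IgM pentamers, followed the same order of sexes in non-leukemic libraries, at 1173, 932 and 2246 CPM in females and 553, 315 and 494 CPM in males.

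**Figure D1:**
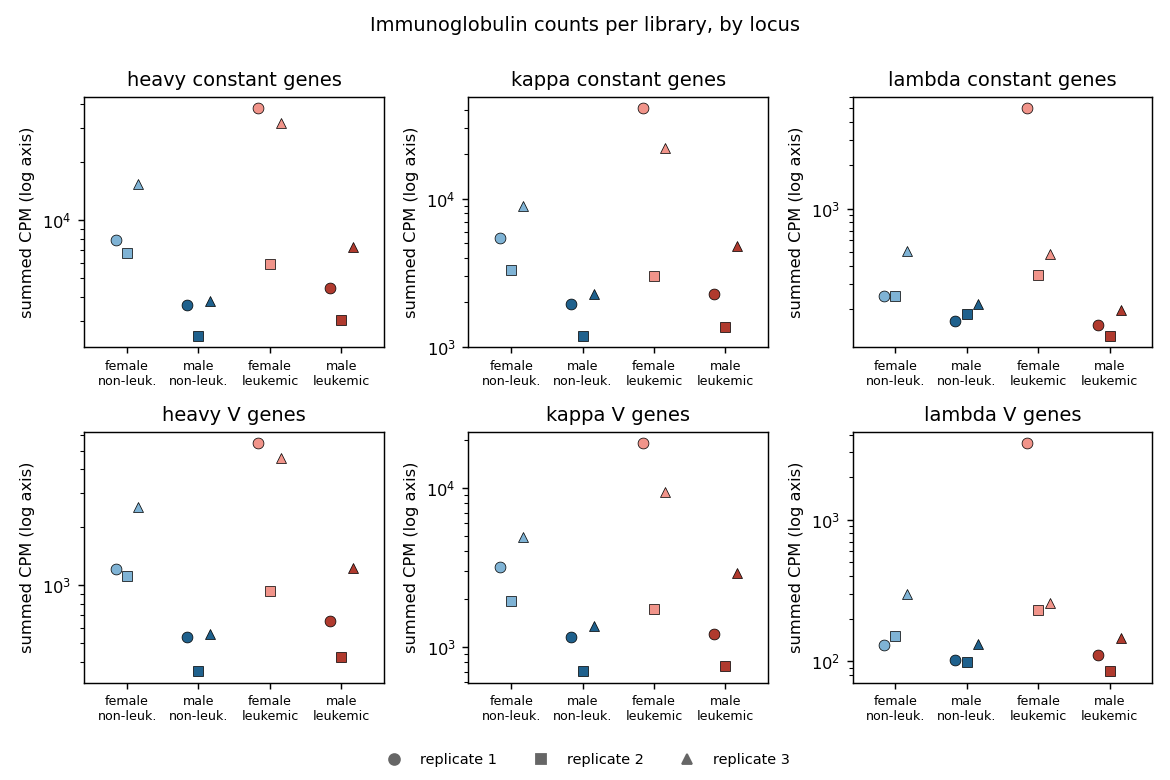
Summed CPM of the constant genes (top row) and V genes (bottom row) of the heavy, kappa and lambda loci, on log axes, with 1 point per library, colour for the group and shape for the replicate number. Female leukemic replicates 1 and 3 are highest for heavy and kappa genes, replicate 1 alone stands far up for lambda genes, and in each panel leukemic and non-leukemic libraries overlap.

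The constant genes Ighm and Igkc carried most of this RNA, 51.1% to 73.9% of the members' counts. Igkc, the only kappa constant gene, was at 5418, 3327 and 8969.7 CPM in female and 1936, 1187 and 2265 CPM in male non-leukemic libraries, and at 41027, 3003 and 21937 CPM in female and 2269, 1363 and 4840.1 CPM in male leukemic libraries. The 2 highest values were those of female leukemic replicates 1 and 3, and the rest of the leukemic libraries lay within the non-leukemic range. The difference did not pass the test, with a log2 change of 1.23 ± 0.57 (SE, adjusted p = 0.169) in edgeR's quasi-likelihood test with Benjamini-Hochberg adjustment, with sex as a term, on which all main comparisons below rest. Ighm, the mu chain, was at 6504, 5404 and 12911 CPM in female non-leukemic, 2665, 2006 and 2737 CPM in male non-leukemic, 34842, 3207 and 28736 CPM in female leukemic and 3497, 2203 and 4265 CPM in male leukemic libraries. It overlapped in the same way and did not pass either, at 0.88 ± 0.49 (SE, adjusted p = 0.251).

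Of the 13 constant genes, Igha and Ighg2b passed the test as higher in leukemic libraries and none passed as lower. Over all genes tested, 8.71% passed as higher and 9.20% as lower. Igha, the alpha chain of mucosal antibody, was at 903, 995 and 1211 CPM and 883, 437 and 671 CPM in the female and male non-leukemic libraries, against 1594, 2506 and 1908 CPM and 812, 717 and 2193 CPM in the leukemic ones. The 2 conditions overlapped, because male leukemic replicates 1 and 2 lay among the non-leukemic libraries. The log2 fold change was 0.84 ± 0.27 (SE, adjusted p = 0.0444), and it passed in only 4 of 12 fits that each left out 1 library, with adjusted p up to 0.120. Ighg2b, a gamma chain, had a lowest, median and highest level of 11.1, 42.4 and 129 CPM in non-leukemic and 37.0, 113 and 749 CPM in leukemic libraries. Its log2 fold change was 1.84 ± 0.58 (SE, adjusted p = 0.0440), and it passed in 3 of the 12 fits, with adjusted p up to 0.109. Both calls therefore depended on which libraries were included.

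None of the other gamma genes passed. Ighg1 was at 16.1, 119.9 and 302 CPM (lowest, median, highest) in non-leukemic and at 11.1, 48.6 and 90.9 CPM in leukemic libraries, with a log2 change of -1.61 ± 0.70 (SE, adjusted p = 0.137). Ighg2c, which some mouse strains carry in place of Ighg2a, had a log2 change of 2.49 ± 1.31 (SE, adjusted p = 0.23), and Ighg3 of 0.01 ± 1.14 (SE, adjusted p = 0.995). The gamma gene with the most counts per kilobase of exon was Ighg2c in 6 of 12 libraries, Ighg2b in 3, Ighg1 in 2 and Ighg3 in 1. In female non-leukemic replicate 2 and male non-leukemic replicate 3 it was Ighg1, with 77.2% and 76.5% of gamma counts per kilobase, while in male leukemic replicate 3 it was Ighg2c with 86.9%. By this measure the leading gamma gene changed within every group. The leader depended on the division by length. In counts not so divided Ighg2b led all 3 female leukemic libraries, with 1.96, 2.20 and 1.98% of heavy constant counts. Ighg1 then led female non-leukemic replicate 1, with 2.14% against 1.34% for Ighg2c. It also led male non-leukemic replicate 1, with 0.601% against 0.555% for Ighg2c.

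Ighd, the delta chain, which naive B cells make beside IgM, was at 24.4, 21.9 and 14.8 CPM and 19.8, 26.5 and 12.2 CPM in female and male non-leukemic libraries, and at 26.9, 27.0 and 19.4 CPM and 9.66, 9.29 and 11.8 CPM in the leukemic ones. All 3 male leukemic libraries lay below all 3 male non-leukemic libraries, and the female groups overlapped. In males it fell, with a log2 change of -1.06 ± 0.29 (SE, adjusted p = 0.0497) in edgeR, from a fit of 4 group means, and it passed in 2 of 12 fits that left out 1 library. With all libraries it was -0.39 ± 0.28 (SE, adjusted p = 0.390). Ighe, the epsilon chain of allergic responses, was listed at 0 in 8 of 12 libraries. Male leukemic replicate 3 alone held 5.39 CPM of it, while female non-leukemic replicates 1 and 3 held 1.29 and 0.225 CPM and female leukemic replicate 1 held 0.933 CPM. A count of 0 allows up to 3 counts, which is 0.10 to 0.177 CPM at these depths.

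Per kilobase of exon, IgM led the heavy chain classes in every library, with 62.5% to 93.0% of constant region counts. The division rests on the exon lengths annotated in GENCODE M21. In counts not so divided IgM led as well, with 54.3% to 91.4%. The values that follow are per kilobase. IgA was the next class, with 3.01% to 34.5%, except in female non-leukemic replicate 3 and female leukemic replicate 1, where IgG held more. IgG held 1.45% to 14.5%. IgA and IgM varied most among the leukemic libraries. IgA reached 34.5% in female leukemic replicate 2 and 22.7% in male leukemic replicate 3, and IgM was lowest in these 2, at 62.5% in both. IgM was highest in female leukemic replicates 1 and 3, at 93.0% and 91.9%, the libraries with the most immunoglobulin RNA. The conditions overlapped in the share of each of these 3 classes.

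**Figure D2:**
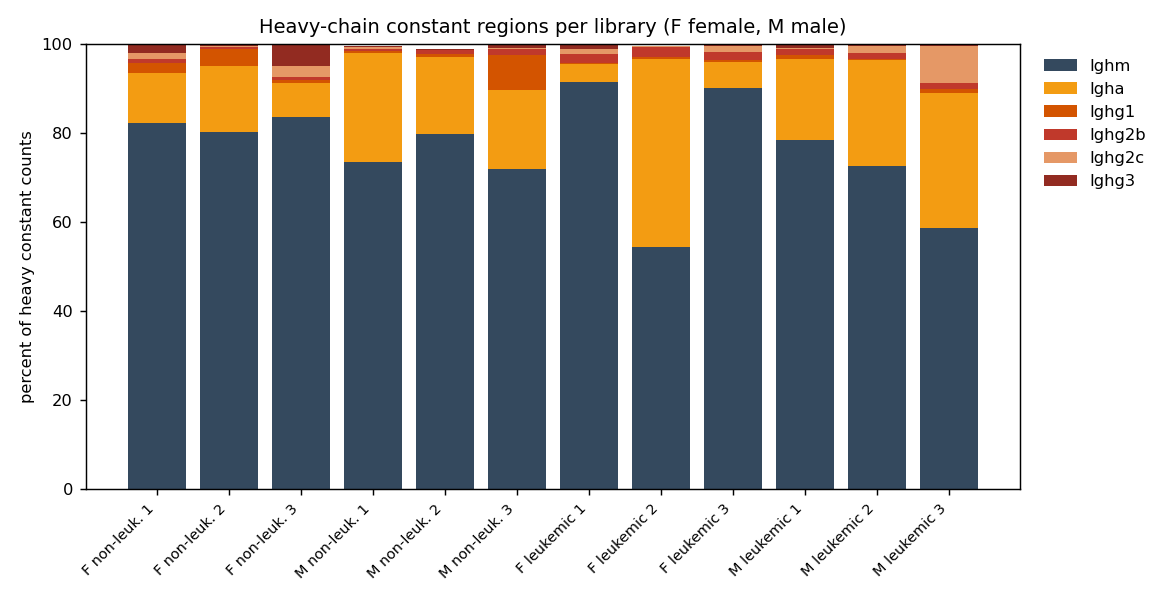
Percent of heavy chain constant counts, not divided by length, taken by Ighm, Igha and the 4 gamma genes in each of the 12 libraries; Ighd and Ighe are not drawn and make up the rest. Igha holds 42.4% in female leukemic replicate 2 and 4.18% in female leukemic replicate 1.

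Light chains were mostly kappa. Lambda took 2.23% to 14.2% of light chain constant counts per kilobase of exon, highest in male non-leukemic replicate 2 and lowest in female leukemic replicate 3. Female leukemic replicate 1 held the most lambda RNA, at 5004 CPM of constant counts against 483 CPM or less in the other leukemic libraries, and most of it came from Iglv2 and Iglc2. Their reads are hard to separate from those of close relatives. The coding sequences of Iglv1 and Iglv2, from the GENCODE M21 transcripts (GRCm38; the deposited counts use GRCm39), differ at 11 of 351 bases, an identity of 96.9%. Iglc2 and Iglc3 differ by 13 edits, an identity of 95.9%. Because the result turns on telling these genes apart, the pairs are printed here, 5′ to 3′, with the bases that differ from the partner in capitals. Each line gives the last 300 bases of the coding sequence, which hold 8 of the differences of Iglv1 and 11 of those of Iglc2.
Iglv1: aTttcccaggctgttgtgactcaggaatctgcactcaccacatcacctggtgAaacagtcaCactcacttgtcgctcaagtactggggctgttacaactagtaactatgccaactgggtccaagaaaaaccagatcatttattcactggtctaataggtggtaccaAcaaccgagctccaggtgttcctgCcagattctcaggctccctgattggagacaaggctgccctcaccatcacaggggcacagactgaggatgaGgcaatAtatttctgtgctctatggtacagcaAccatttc
Iglv2: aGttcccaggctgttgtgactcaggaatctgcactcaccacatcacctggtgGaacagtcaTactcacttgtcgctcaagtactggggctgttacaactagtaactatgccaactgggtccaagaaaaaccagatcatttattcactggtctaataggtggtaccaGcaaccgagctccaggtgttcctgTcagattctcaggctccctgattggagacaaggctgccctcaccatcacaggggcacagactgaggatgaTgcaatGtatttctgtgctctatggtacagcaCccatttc
Iglc2: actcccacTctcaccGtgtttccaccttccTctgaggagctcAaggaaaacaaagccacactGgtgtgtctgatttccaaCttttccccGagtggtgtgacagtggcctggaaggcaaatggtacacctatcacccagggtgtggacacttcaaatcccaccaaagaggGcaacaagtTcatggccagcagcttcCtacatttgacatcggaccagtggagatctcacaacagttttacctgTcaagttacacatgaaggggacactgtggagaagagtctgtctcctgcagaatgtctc
Iglc3: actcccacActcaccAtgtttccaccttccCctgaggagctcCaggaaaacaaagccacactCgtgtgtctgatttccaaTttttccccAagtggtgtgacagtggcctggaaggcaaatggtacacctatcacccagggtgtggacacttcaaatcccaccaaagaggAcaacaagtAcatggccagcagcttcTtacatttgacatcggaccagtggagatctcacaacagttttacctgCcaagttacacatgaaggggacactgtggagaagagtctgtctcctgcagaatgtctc
The lambda locus lies on chromosome 16.

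Iglv2 was at 23.3, 48.7 and 36.1 CPM and 33.6, 23.8 and 19.4 CPM in the female and male non-leukemic libraries, and at 3019.5, 54.2 and 61.3 CPM and 26.5, 28.6 and 27.6 CPM in the leukemic ones. Iglc2 was at 81.0, 100.4 and 134 CPM and 58.3, 65.9 and 62.6 CPM in the non-leukemic, and at 4378, 97.1 and 218 CPM and 47.9, 52.8 and 61.5 CPM in the leukemic libraries. Both were extreme in female leukemic replicate 1 alone, where Iglv2 held 87.3% of lambda V counts and Iglc2 87.5% of lambda constant counts. Neither passed in the main comparison, at 2.50 ± 1.41 (SE, adjusted p = 0.260) for Iglv2 and 1.85 ± 1.17 (SE, adjusted p = 0.325) for Iglc2. In females they passed, at 5.0 ± 1.32 (SE, adjusted p = 0.0376) and 4.03 ± 1.11 (SE, adjusted p = 0.0450), but in only 2 of 12 fits that left out 1 library each. Iglv1 and Iglc1 spread less: Iglv1 had a log2 change of 0.35 ± 0.36 (SE, adjusted p = 0.570) and Iglc1 of 0.09 ± 0.39 (SE, adjusted p = 0.914). Iglc3 had 0.45 ± 0.34 (SE, adjusted p = 0.413), and Iglc4, at no more than 2.33 CPM in any library, 1.42 ± 1.07 (SE, adjusted p = 0.416).

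The V genes of a locus were set against its constant genes. Heavy V genes had 14.0 to 17.0 counts per 100 constant region counts, kappa V genes 43.0 to 60.2 and lambda V genes 52.9 to 73.9, over the 12 libraries. The heavy chain ratio thus stayed within a narrow range while the summed share of counts ran from 0.505% to 11.2%. The kappa ratio was lowest in the libraries with the most immunoglobulin RNA. It was 46.3 and 43.0 in female leukemic replicates 1 and 3, and 53.6 or more in every other library.

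Of the 202 members tested, 26 passed as higher in leukemic libraries (12.9%, where 8.71% of all 15758 genes did) and 2 passed as lower (0.99%, where 9.20% did), where 17.9% of all genes passed in either direction. The share higher was above the background and the share lower below it. The median log2 fold change of the members tested was 1.03, against -0.01 over all genes tested, and 152 of 202 were positive, 75.2% against 49.3% of all genes. At an unadjusted p under 0.05, 57 were higher and 7 lower, given without the share over all genes, so they cannot be set against it. These counts describe members that passed the filter and count as no support, since a gene could pass it through the high libraries alone. None of the 244 genes had all 6 leukemic libraries on 1 side of the 6 non-leukemic ones, while 5.05% of all genes tested lay above and 3.63% below in that way. By kind, 11 of 95 Ighv, 13 of 92 Igkv and 2 of 8 heavy constant genes rose, and 1 Ighv and 1 Igkv gene fell.

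The library that was highest for each of the 26 genes that rose was female leukemic replicate 1 for 15, female leukemic replicate 3 for 7, male leukemic replicate 3 for 3 and female leukemic replicate 2 for 1. Over all 231 V members it was female leukemic replicate 1 for 94 and replicate 3 for 48. Of the 28 genes called in either direction, 9 passed in all 12 fits that left out 1 library: Igkv4-72, Igkv4-70, Igkv4-60, Igkv6-23, Ighv2-9-1, Ighv5-17, Ighv1-9, Ighv1-69 and Ighv1-75. The count that rose fell to 11 without female non-leukemic replicate 2, to 13 without female non-leukemic replicate 1 and to 16 without male leukemic replicate 3. Without both libraries that stood apart it was 24, with 2 lower. These counts are given without the share of all genes called in the same fits. The genes named here for passing every fit were chosen after their values were seen. Among them, Igkv4-60 had 2 counts over the non-leukemic libraries and passed the low-count filter through leukemic ones alone.

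**Figure D3:**
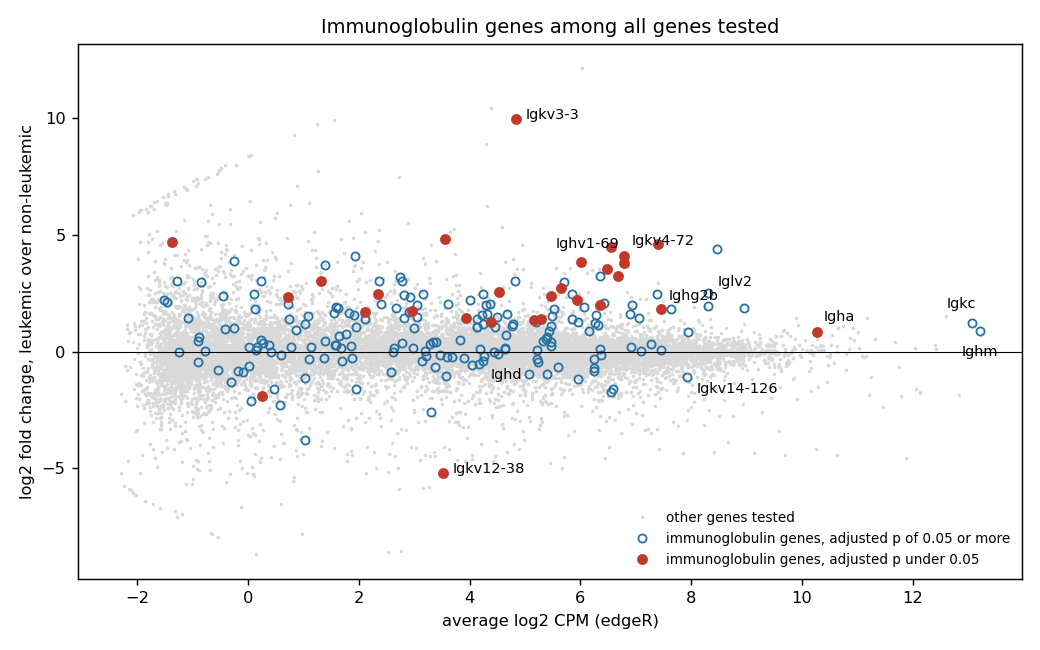
Log2 fold change, leukemic against non-leukemic, of each of the 202 tested members against its mean log2 CPM, with members that passed as filled red points, members that did not as open blue circles and all other tested genes as grey dots. The members spread over both sides of 0, with Igkv3-3 highest at 9.98 and Igkv12-38 lowest at -5.22.

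The lowest p among the V genes that rose belonged to Igkv4-72. It was at 31.1, 6.24 and 27.1 CPM in female and 2.45, 1.42 and 2.66 CPM in male non-leukemic libraries, and at 775, 34.1 and 230.0 CPM in female and 20.1, 21.2 and 81.7 CPM in male leukemic libraries. Each leukemic library exceeded all 3 non-leukemic libraries of its own sex, and the log2 fold change was 4.09 ± 0.72 (SE, adjusted p = 0.00180). Ighv1-69 went from 8.52, 11.1 and 4.62 CPM and 1.99, 2.07 and 1.03 CPM in female and male non-leukemic libraries to 523, 29.7 and 86.2 CPM and 9.52, 7.94 and 16.2 CPM in leukemic ones. Its log2 fold change was 3.82 ± 0.74 (SE, adjusted p = 0.00333), and its highest library was again female leukemic replicate 1. Ighv5-17 rose from a lowest, median and highest level of 3.37, 6.91 and 15.2 CPM to 10, 19.1 and 38.6 CPM, with the condition ranges overlapping. Its log2 fold change was 1.45 ± 0.33 (SE, adjusted p = 0.00855). Ighv1-77 was at no more than 1.5 CPM in any non-leukemic library, against 2.90, 0.749 and 61.5 CPM and 4.69, 8.57 and 62.1 CPM in the female and male leukemic libraries, at 4.81 ± 1.08 (SE, adjusted p = 0.00810). It did not pass without female leukemic replicate 3, which with male leukemic replicate 3 was far above the rest. Igkv4-60, a pseudogene in the GENCODE annotation, had 90 counts over the leukemic and 2 over the non-leukemic libraries, a ratio of 36.3 with a 95% counting interval of 9.76 to 304. The interval pools the libraries of a condition and leaves out the spread between them. This gene passed the low-count filter through leukemic libraries alone, so its call counts as no support. Its closest V gene, Igkv4-53, has an identity of 97.2%.

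Igkv12-38 and Ighv1-41 were the V genes that fell. Igkv12-38 was at 126 CPM in female non-leukemic replicate 1 and at no more than 3.80 CPM in any other library. Its log2 fold change was -5.22 ± 1.47 (SE, adjusted p = 0.0268), and it did not pass without that library, at an adjusted p of 0.361 in edgeR. Ighv1-41, a pseudogene in GENCODE, had a lowest, median and highest level of 1.16, 1.69 and 2.31 CPM in non-leukemic and 0.140, 0.376 and 1.17 CPM in leukemic libraries, with a log2 change of -1.91 ± 0.54 (SE, adjusted p = 0.0268). It passed in 5 of 12 fits without 1 library, with adjusted p up to 0.0736. The next in order of p, none of which passed, were Igkv14-126 at -1.08 ± 0.38 (SE, adjusted p = 0.0723), Igkv10-95 at -2.30 ± 0.82 (SE, adjusted p = 0.0726) and Igkv8-18 at -3.78 ± 1.43 (SE, adjusted p = 0.0881). Igkv3-3, with the largest positive fold change of those that rose, had 5 counts over the non-leukemic libraries against 9099 over the leukemic ones, of which female leukemic replicate 1 held 300.1 CPM. It was singled out after its value was seen, and passed in 7 of 12 fits. Igkv3-3 too passed the low-count filter through leukemic libraries alone, so its call counts as no support.

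Within each sex, 24 of 202 genes rose in females (11.9%, where 3.84% of all genes did) and 0 fell (4.59% of all genes, 8.43% in either direction), and 11 of the 24 were among the 26. In males 1 rose (0.495%, where 3.34% of all genes did), Igkv4-72, and 2 fell (0.99%, where 4.04% did, and 7.37% in either direction), Ighd and Ighv1-41. Igkv4-72 and Ighv1-41 also passed in the main comparison. Igkv4-72 passed in 3 and Ighv1-41 in 4 of 12 male fits that left out 1 library. The female count fell to 1 without female non-leukemic replicate 1, to 3 without replicate 2 and to 9 without replicate 3, and was 44 without female leukemic replicate 2, 14 without female leukemic replicate 1, 13 without male non-leukemic replicate 2 and 15 without male leukemic replicate 1. The share of all genes called in these fits is not given. The test of the difference between the sexes called 0 of 202 members and 0% of all genes in edgeR. At an unadjusted p under 0.05 there were 35 members, given without the share over all genes, so no result is read from them. For the same test limma-voom called 0 members, and DESeq2 called 4 positive and 1 negative, also given without the share over all genes. The lowest p of that test belonged to Ighv1-85, Ighv1-39 and Igkv8-16, with adjusted p of 0.815 each. Ighv1-39 was at 5.69, 3.84 and 1.99 CPM in female non-leukemic and 495, 19.6 and 60.3 CPM in female leukemic libraries, and at 14.7, 2.48 and 7.05 CPM and 4.94, 6.10 and 4.0 CPM in male non-leukemic and leukemic ones.

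The members spread widely between libraries of the same group. The median within-group SD of log2 CPM was 1.5 for the 202 members, against 0.425 for all 15758 genes. It was 1.43 for Ighv, 1.62 for Igkv and 1.17 for constant genes. An SD above 1 was found in 82.2% of the members and 17.6% of all genes. This is a description of the members, which include genes of low level.

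Different V genes led different libraries. In the heavy locus, on chromosome 12, 9 genes led the 12 libraries in counts, and in the kappa locus, on chromosome 6, 7 genes did. Ighv9-4 alone held 42.5% of heavy V counts in female non-leukemic replicate 2 but 0.154% in replicate 1, and Ighv1-15 held 19.7% in replicate 1 but 0.509% in replicate 2. Ighv1-80 led female non-leukemic replicate 3 with 25.3%. Each of the 3 female non-leukemic libraries thus had its own leading gene. Among the leukemic libraries Ighv8-8 led female replicate 1 with 17.5%, Ighv1-53 replicate 2 with 7.09% and Ighv3-6 replicate 3 with 21.3%. Ighv6-3 led male leukemic replicate 2 with 8.31%, and Ighv14-3 led male leukemic replicate 3 with 15.3%.

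In the kappa locus Igkv8-30 led female non-leukemic replicate 1 with 27.0%, Igkv6-17 replicate 2 with 23.1% and Igkv1-99 replicate 3 with 18.4%. Here too no leader was shared among the female non-leukemic libraries. Igkv6-13 led female leukemic replicate 1 with 19.0% and was at 0.0694% in replicate 3, which Igkv4-55 led with 19.0%. Igkv6-32 led male leukemic replicates 2 and 3, with 13.1% and 31.5%. Per kilobase of exon the leading gene was the same in each case but male leukemic replicate 1, where Ighv3-6 replaced Ighv11-2. Of the leaders, Igkv6-32 rose in the main comparison, at 4.6 ± 1.21 (SE, adjusted p = 0.0194), and did not pass without male leukemic replicate 3 or without female non-leukemic replicate 2.

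**Figure D4:**
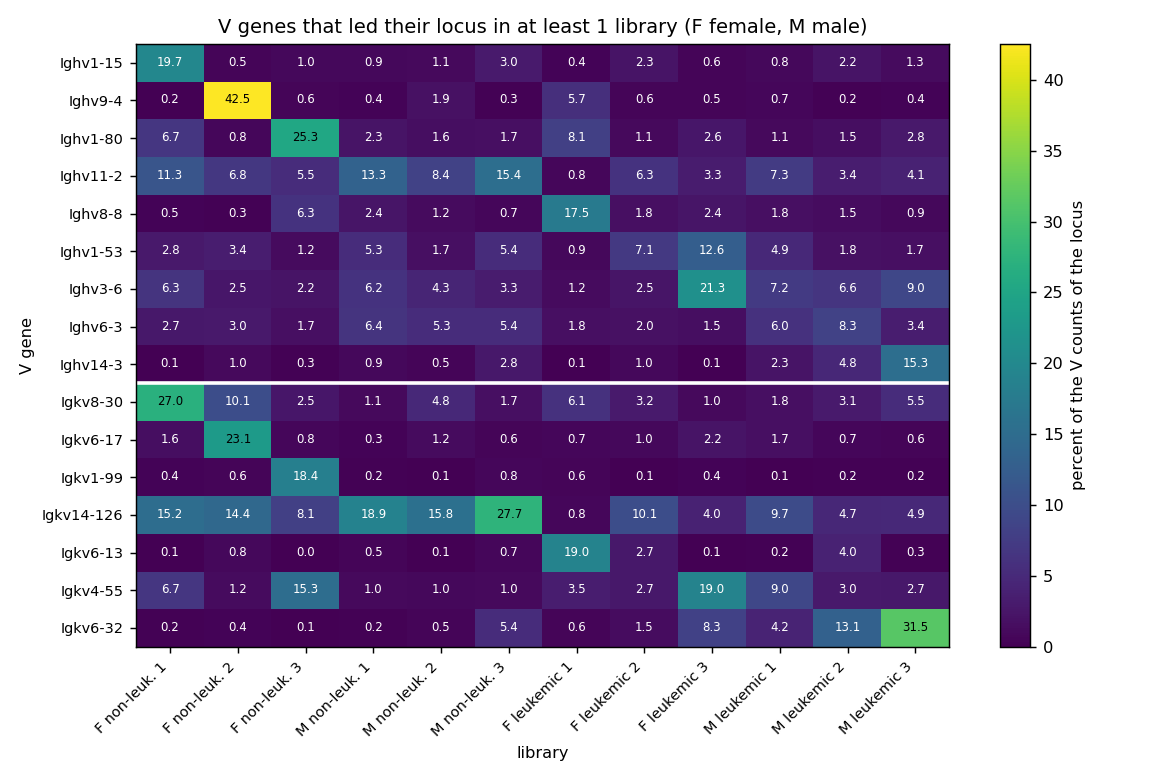
Share of V gene counts of its locus, in percent, for each gene that led at least 1 library, by library, as colour and printed value, with heavy V genes above the white line and kappa V genes under it. Ighv11-2 leads 4 libraries, Igkv14-126 leads 5, Igkv6-32 leads 2 and each of the others 1, such as Ighv9-4 at 42.5% in female non-leukemic replicate 2.

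Ighv11-2 and Igkv14-126 each led more libraries than any other V gene of their locus. They are the heavy and kappa V genes of the best known antibodies of B-1a cells, an innate-like B cell type, which bind the membrane lipid phosphatidylcholine. Ighv11-2 led all 3 male non-leukemic libraries and male leukemic replicate 1, and Igkv14-126 led the same 4 and female leukemic replicate 2. As the pair recurs across libraries, the last 200 bases of both coding sequences are printed, from the GENCODE M21 transcripts and 5′ to 3′, with the last in-frame cysteine codon in capitals, after which the joined part (CDR3) begins.
Ighv11-2: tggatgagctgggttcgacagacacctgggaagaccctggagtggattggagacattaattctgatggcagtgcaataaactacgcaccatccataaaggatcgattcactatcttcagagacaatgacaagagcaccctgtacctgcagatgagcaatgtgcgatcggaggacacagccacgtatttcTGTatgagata
Igkv14-126: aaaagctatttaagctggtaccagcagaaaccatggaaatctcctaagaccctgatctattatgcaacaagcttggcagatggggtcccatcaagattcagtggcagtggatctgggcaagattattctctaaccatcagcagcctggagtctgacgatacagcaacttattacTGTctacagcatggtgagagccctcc
The closest other V gene to Ighv11-2 is Ighv11-1, with an identity of 98.9%, so the split of reads between them is uncertain. For Igkv14-126 it is Igkv14-111, with 91.5%. Over all V members, 55 Ighv and 50 Igkv genes have another at an identity of 95% or more, and values of such genes carry the same limit.

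Ighv11-2 was at 137, 76.2 and 139.9 CPM and 71.4, 30.2 and 85.7 CPM in female and male non-leukemic libraries, and at 42.5, 58.2 and 148 CPM and 48.1, 14.5 and 50.4 CPM in leukemic ones. Igkv14-126 was at 481, 279 and 400.2 CPM and 219, 111 and 375 CPM in the non-leukemic, and at 154, 176 and 381 CPM and 118, 35.7 and 142 CPM in the leukemic libraries. In both genes the conditions overlapped, and female leukemic replicate 3 was the highest leukemic library. Neither passed the test, with log2 fold changes of -0.71 ± 0.38 (SE, adjusted p = 0.234) and -1.08 ± 0.38 (SE, adjusted p = 0.0723). As a share of the V counts of the locus, the Ighv11 family held 5.47, 9.88 and 15.4% (lowest, median, highest) in non-leukemic and 0.783, 3.75 and 7.35% in leukemic libraries, and the Igkv14 family 8.74, 16.8 and 29.7% and 4.32, 6.19 and 13.8%. Both shares overlapped between conditions and were given no test. A share of V counts also falls when other V genes rise.

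Among the larger families Ighv1, with 64 members, held 21.4, 38.7 and 68.9% (lowest, median, highest) of heavy V counts in non-leukemic and 37.3, 47.4 and 59.0% in leukemic libraries. Igkv4, with 32 members, held 8.23, 11.3 and 33.9% and 11.4, 20.1 and 41.2%, and Igkv6, with 9 members, 3.71, 6.77 and 27.6% and 11.4, 19.3 and 43.4%. In gene order, the 60 Ighv members nearest to the constant genes held 28.9% to 81.0% of heavy V counts in non-leukemic and 30.3% to 67.0% in leukemic libraries. The 54 nearest Igkv members held 38.6% to 63.7% and 52.2% to 70.3%. Annotated pseudogenes, 19 of the Ighv and 11 of the Igkv members, held 0.154% to 1.18% and 0.0241% to 0.237% of V counts of their locus.

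How evenly V genes were used is given by the effective number of V genes, the number of equally used genes with the same Shannon entropy. For heavy V genes it was 27.2, 16.5 and 17.1 in female and 36.8, 47.6 and 37.6 in male non-leukemic libraries, and 25.3, 44.9 and 23.7 in female and 44.8, 43.0 and 36.5 in male leukemic libraries. For kappa V genes it was 20.7, 23.9 and 22.7 and 33.6, 35.1 and 28.0 in the non-leukemic, and 30.7, 41.2 and 26.0 and 43.8, 38.7 and 22.9 in the leukemic libraries. In non-leukemic libraries every male one had a higher effective number than every female one in both loci. For kappa this order depended on the measure. By the inverse Simpson index, another measure of evenness, females were at 9.10 to 11.8 and males at 10.9 to 19.4. The rarefied number of kappa V genes overlapped too, at 79.3 to 90.2 in females and 85.6 to 97 in males. Conditions overlapped in both: heavy chain means were 30.5 ± 12.4 against 36.4 ± 9.72 (SD, n = 6 each) and kappa means 27.3 ± 5.96 against 33.9 ± 8.59. Female leukemic replicate 2, the female leukemic library with the least immunoglobulin RNA, was the most even leukemic one for heavy chains, while male leukemic replicate 3 was the least even leukemic one for kappa. Leaving out the leading gene raised female non-leukemic replicate 2 from 16.5 to 40.2 for heavy chains.

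**Figure D5:**
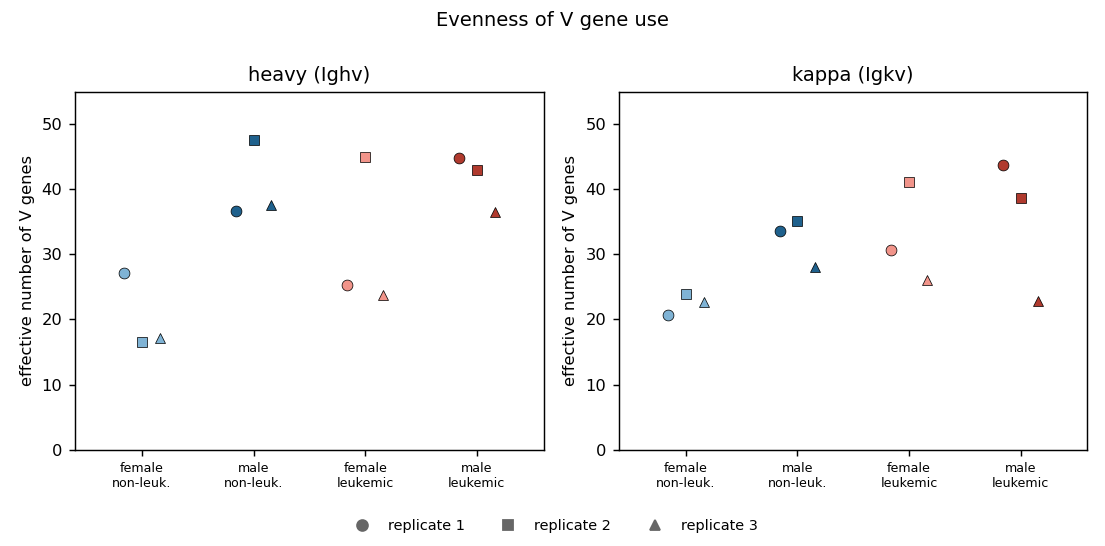
Effective number of V genes of the heavy and kappa loci in each library, by group. The male non-leukemic libraries, at 36.8 to 47.6 for heavy and 28.0 to 35.1 for kappa, lie above the female non-leukemic ones, at 16.5 to 27.2 and 20.7 to 23.9.

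The genes of B cells and plasma cells are given beside these values. Of 12 B cell identity genes, 0 rose and 0 fell (background 8.71% and 9.20%), and none was at 0 in all libraries. Of 7 genes of the surrogate light chain and of V(D)J recombination, 0 rose and 0 fell, with Rag1 at 0.0333 to 7.34 CPM and Igll1 at 22.2 to 111 CPM. All 7 had counts in every library. Of 12 plasma cell genes 2 rose, Txndc5, a disulfide isomerase of the endoplasmic reticulum, at 0.88 ± 0.23 (SE, adjusted p = 0.0199), and Fkbp11, a prolyl isomerase of the secretory path, at 0.92 ± 0.27 (SE, adjusted p = 0.0308), and none fell. The summed level of the 12 was 1125 to 3257 CPM in non-leukemic and 1161 to 11554 CPM in leukemic libraries, and its 2 highest libraries were female leukemic replicates 1 and 3, also the highest in immunoglobulin RNA. Jchain, 1 of the 12, was at 9699, 809 and 4186 CPM and 506, 290.1 and 963 CPM in female and male leukemic libraries. It made up most of the summed level in female leukemic replicates 1 and 3, which was 11554 and 6094 CPM. The part of plasma cell RNA in the immunoglobulin results was not tested.

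Of 4 genes linked to class switching, Mki67, a proliferation marker, fell, at -1.25 ± 0.24 (SE, adjusted p = 0.00280). Of 7 tested immunoglobulin receptor genes 0 rose and 1 fell (background of all lists here 8.71% and 9.20%). The gene that fell was Fcgrt, the neonatal Fc receptor that spares IgG from breakdown, at -1.24 ± 0.29 (SE, adjusted p = 0.0109). Fcgr1, the high-affinity IgG receptor of macrophages, had -0.40 ± 0.55 (SE, adjusted p = 0.684), and Fcamr was at 0 in every library. Genes of other cell types changed with leukemia in the same libraries: 10 of 10 T and NK cell genes and 5 of 5 basophil and mast cell genes rose, and 8 of 8 erythroid and 6 of 8 neutrophil genes fell. The summed T and NK genes went from 260.1 to 531 CPM in non-leukemic to 1111 to 2423 CPM in leukemic libraries, and the basophil and mast cell genes from 3415 to 7660.5 CPM to 8663 to 32749 CPM. Of 6 plasmacytoid dendritic cell genes 1 rose, Bst2, and 2 fell, Siglech and Ccr9, and their summed level was 360.1 to 540.4 CPM in non-leukemic and 505 to 758 CPM in leukemic libraries. Of 9 macrophage gate genes 1 rose, Ptprc, and 3 fell, Ly6g, Adgre1 and Csf1r. Their part in the immunoglobulin results was not tested.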

How the data were processed

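Per the labels' protocols, cDNA was pre-amplified from 1 ng of RNA with a kit that marks neither strand nor molecules, and tagmented. The deposited values are the authors' raw counts per gene for 12 libraries. The submitters' processing notes name fastp 0.23.1, STAR 2.7.9a, Subread 2.0.1 and featureCounts with GRCm39; treatment of reads that match several genes is not given in the sources used here. Since V genes are short and alike and the segments are joined by recombination, such reads may be lost or misplaced.

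CPM used library totals. Here counts were TMM-scaled, filtered (filterByExpr) and tested with edgeR 4.0.16 (R 4.3.3) over 15758 genes, adjusted by Benjamini and Hochberg with a threshold of 0.05; sex was a term, and sex-specific effects came from 4 group means. The SE is the fold change over the square root of F. The pipeline was tested on simulated data. GENCODE M21 gave sequences, exon lengths, pseudogenes and gene order, by symbol. Alternatives used RLE, DESeq2 1.42.0, limma-voom of limma 3.58.1, other filters and omitted libraries.

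Members and lists were chosen with earlier results of these data known. Named were all constant and Iglv genes, the 5 Ighv and 5 Igkv genes with the highest mean CPM, the 5 V genes per direction and 3 interaction genes with the lowest p, each library's leading V genes and up to 4 genes per list with the lowest p; others were named after their values were seen. Values of 2 listed genes are not reported here.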

Additional observations from a re-analysis of the deposited data

Results flagged for a closer look

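In each condition, 32 measures of class, light chain and V use were checked for 1 library far from the other 5. The gap of the extreme library to its nearest neighbour, over the whole range, was above Dixon's 95% value for 6 libraries in 21 of 64 checks. Chance flags about 1 in 20 groups of normally distributed values, which is 3.2 of 64. The values checked were not log-transformed and each condition mixed the sexes, so that rate may not hold here. Many of these measures also share counts. Female leukemic replicate 1 was the extreme library in 10 of the 21.

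Among non-leukemic libraries, female replicate 3 stood above the rest for lambda V genes (300.2 CPM), lambda constant genes (502 CPM), IgG (1324 CPM), Ighg2c (357 CPM), Ighg3 (767 CPM), Iglc1 (324 CPM), Iglc4 (0.639 CPM) and Iglv1 (264 CPM). Female non-leukemic replicate 1 stood above for Ighe, at 1.29 CPM.

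Among leukemic libraries, female replicate 1 stood above the rest for lambda V genes (3459.8 CPM), lambda constant genes (5004 CPM), Ighg3 (433 CPM), Iglc1 (544 CPM), Iglc2 (4378 CPM), Iglc4 (2.33 CPM), Iglv1 (440.2 CPM) and Iglv2 (3019.5 CPM). It also had the extreme share of Iglv2 among lambda V counts, 87.3%, and of Iglc2 among lambda constant counts, 87.5%. Male leukemic replicate 3 stood above for Ighe, at 5.39 CPM, and for the share of IgG among heavy constant counts, at 10.8%.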

How the results depend on the processing

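No called gene changed direction under any alternative. The 199 recomputed sums and measures of V use moved by less than 1 SD between libraries. Leaving out 1 library, or both that stood apart, could not move a mean difference that far. Such omissions, most of the 199, therefore say nothing about stability by this rule. A few results crossed 0. The mean log2 difference of lambda constant genes, 0.67, was -0.07 without female leukemic replicate 1 and -0.10 without both libraries that stood apart. The leukemic minus non-leukemic difference in V gene use of the heavy locus was positive as an effective number, at 5.92, and -0.36 as a rarefied number of V genes. For V use the SD was that of the effective number, 12.4 in non-leukemic and 9.72 in leukemic libraries for heavy chains. The rarefied number had SDs of 6.33 and 5.27, so that comparison sets unlike measures side by side. Among named genes that did not pass, Ighe, Ighg3, Ighv1-15, Ighv1-80, Ighv1-85, Ighv9-4, Igkv1-99, Igkv6-17, Igkv8-30 and Iglc1 changed sign under at least 1 alternative. Counts of called members moved too, and are given here without the share of all genes called under the same alternative. It therefore cannot be told if the members moved apart from the rest. The 26 higher genes of the main comparison became 41 with DESeq2, 13 with limma-voom and 12 with no low-count filter, and ranged from 11 to 37 when 1 library was left out. The 2 lower genes became 4 with DESeq2, 1 without the sex term and 0 with either other filter, and ranged from 0 to 4. In males the 1 higher gene became 13 with DESeq2, 2 without both libraries that stood apart and 0 with limma-voom or either other filter, ranging from 0 to 5. The 2 lower genes in males became 5 with DESeq2, 0 with no filter, and 1 with RLE, limma-voom or a filter of 5 CPM in 3 libraries, ranging from 0 to 2. In females the 24 higher genes became 45 with DESeq2, 7 with limma-voom, 8 with no filter and 14 without both libraries that stood apart, ranging from 1 to 44, and the 0 lower genes became 2 with DESeq2. The interaction, with 0 calls, had 4 positive and 1 negative with DESeq2. The cause of these moves was not tested. Of 577 alternatives for single called genes, 172 lost the call. Counts per kilobase as the unit of V use were added after seeing the data.

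The replicate numbers did not pair the libraries: correlations of same-numbered deviations ran from -0.113 to 0.0782 over 18 pairs, and 6 of 12 libraries correlated best with their own number, a hint from the data and not the design. With the replicate block the main comparison called 18 higher and 2 lower, males 2 and 1, and females 14 and 0. The share of all genes called with the block is not given.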

Other observations

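The joining (J) segments, short pieces between V and constant segments that the symbol rule left out, had counts of their own. Summed heavy J segments were at 27.1, 18.2 and 33.9 CPM in female and 12.9, 9.82 and 14.3 CPM in male non-leukemic libraries, and at 69.0, 18.1 and 70.8 CPM in female and 14.5, 9.06 and 18.4 CPM in male leukemic libraries. Female leukemic replicates 1 and 3 were again the highest. Kappa J segments were highest in the same libraries, at 48.3 and 29.5 CPM, and in none of the other 10 above 13.2 CPM.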
